A study of Mus musculus with 12 samples.

Results

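Penk, Tac1, Dlx5, Dlx6 and Foxp2 are described here as a group of 5 genes of GABAergic neurons of the forebrain, out of 56923 rows of the deposited table. They were chosen by symbol, through the Ensembl identifier of each row, with their levels and the difference of Penk between the groups already known, so those values are given below as a description and support nothing further. The study measured polyadenylated RNA in mouse brain sections, all labelled wild type. The 6 control libraries came from sections held in artificial cerebrospinal fluid (aCSF), the ionic medium used for live slices, for 5 hours. The other 6 came from sections held equally long in aCSF to which L-fucose had been added, a sugar found at the ends of many glycoprotein and glycolipid chains. The labels of the 12 samples name tissue, genotype and treatment, and no deletion, transgene or drug is named for either group. The age and sex of the mice, the brain region and plane of the sections, the concentration of L-fucose and whether each library came from its own animal were not stated in the labels. P-values therefore measure the spread between these libraries, which may be in part technical.

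Penk encodes preproenkephalin, the precursor from which the enkephalins, peptides that act on opioid receptors, are cut. Tac1 encodes the precursor of substance P and neurokinin A, which act on tachykinin receptors. In the striatum the 2 peptide genes mark different projection neurons, Penk those of the indirect pathway, which carry D2 dopamine receptors, and Tac1 those of the direct pathway, which carry D1 receptors. Dlx5 and Dlx6 are neighbouring homeobox genes whose products act in the differentiation and migration of GABAergic neurons born in the ventral forebrain. Foxp2 encodes a forkhead transcription factor found in striatal projection neurons, in the deep layer of the cortex, in parts of the thalamus and in Purkinje cells. In a whole section, the level of such a gene follows both how many of its cells the section holds and how much RNA each cell makes, and in bulk RNA fewer cells of a type and less RNA per cell cannot be told apart.

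Row names in this table do not everywhere say what was counted, so the positions of the 5 rows were checked first. For windows of 80 neighbouring rows, the row level was correlated with the share of the row's exonic bases that lies on protein-coding exons, while the row positions were displaced by up to 600 kb either way. In the 2 windows over Penk the correlation was highest at no displacement, where it was 0.73 and 0.79, and beyond 1 kb it reached at most 0.63. In the 4 windows over Tac1 it was highest at no displacement in each (0.79 to 0.81, at most 0.66 beyond 1 kb), and the same held for the 4 windows over Dlx5 and Dlx6 (0.79 to 0.82). In the 4 windows over Foxp2 the best displacement was 0 or -0.5 kb, with 0.76 to 0.80 at none and at most 0.76 beyond 1 kb. All 5 rows thus lie where levels follow exons, called in register below, which holds for 1400 rows, 457 of them tested. In 2529 windows over the genome, 151 matched best within 1 kb of no displacement.

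**Figure D1:**
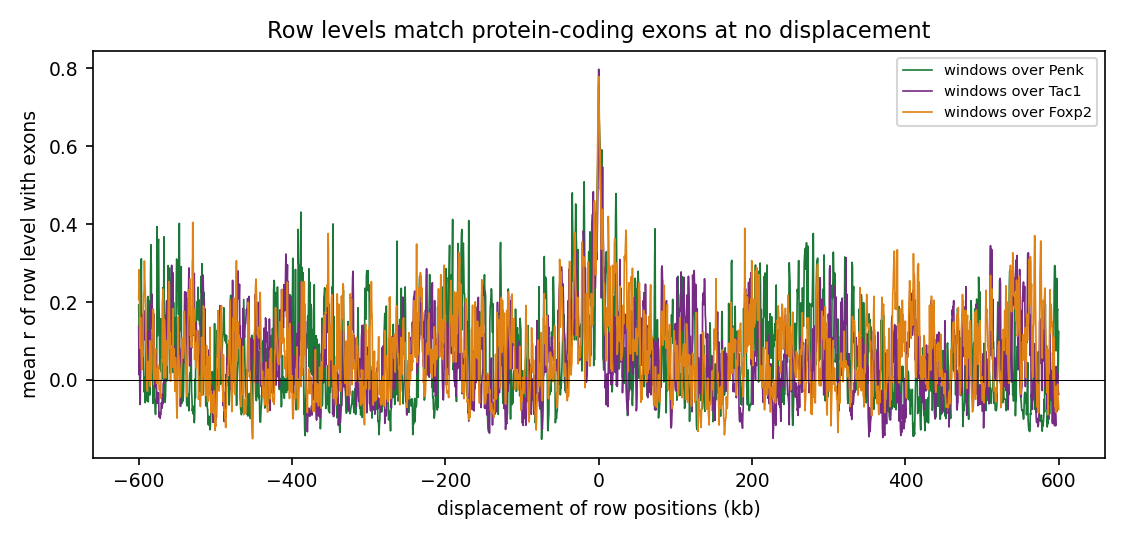
Mean Pearson r (y axis) between row level and overlap with protein-coding exons, against the displacement of the row positions in kb (x axis), averaged over the 2 windows that hold Penk, the 4 that hold Tac1 and the 4 that hold Foxp2. Each line has its highest peak at or within 0.5 kb of no displacement.

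Libraries held 9191687 to 18563078 reads, the most in L-fucose 2. Mitochondrial rows took their largest shares of reads in aCSF 5 (41.9%) and aCSF 6 (44.8%), and these 2 libraries also had the lowest numbers of rows above 0, 14340 and 14856, where the remaining 10 had 16514 to 19014. aCSF 4 had the lowest mitochondrial share, 27.6%. Genes abundant in neurons had high levels in register, among them Basp1, a growth cone protein, at 23057 ± 1611 normalized reads in aCSF and 23588 ± 2550 in L-fucose (SD, n = 6 each). A normalized read count is a row's reads after division by the library's size factor.

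Penk was the most abundant of the 5 genes and the one whose groups lay farthest apart. In the aCSF libraries it ran from 3075 normalized reads (aCSF 4) through a median of 6168 to 9043 (aCSF 6). In L-fucose it ran from 6537 (L-fucose 5) through a median of 9014 to 12217 (L-fucose 2). All 6 L-fucose libraries were above the aCSF median and 3 were above the highest aCSF library, while 3 aCSF libraries were below the lowest L-fucose one, so the groups overlapped. The means were 9059 ± 1958 against 6171 ± 2192 (SD, n = 6 each). On the log2(value + 1) scale this is a difference of 0.61 with a standard error of 0.20 and a 95% interval from 0.20 to 1.03, or 1.53-fold (1.15 to 2.04). Penk (ENSMUSG00000045573) spans chromosome 4 from 4133531 to 4138819 on the minus strand of GRCm38, with 1634 exonic bases, of which 14.3% lie opposite an exon of A830012C17Rik, a transcript of the other strand. That transcript's own row had at most 1.15 normalized reads in any library.

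The Penk difference depended on which control libraries were counted. aCSF 5 and aCSF 6 held 7818 and 9043 normalized reads, the highest of the control group. Without them the control mean was 5041 ± 1628 (n = 4), its highest library 7022, and the log2 fold change 0.88 (interval 0.52 to 1.24). Without aCSF 4, the lowest library, the fold change was 0.43 (0.10 to 0.76). Leaving out each library in turn gave values from 0.43 to 0.74.

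**Figure D2:**
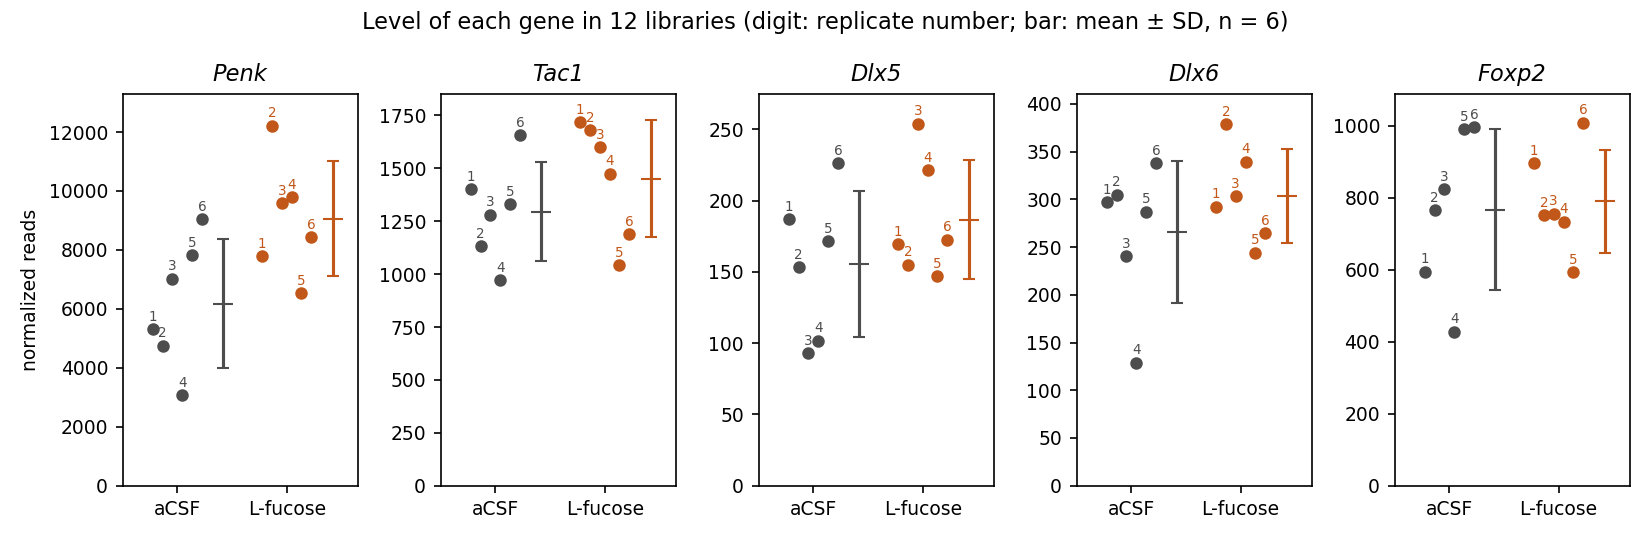
Normalized reads (y axis, from 0) of each of the 5 genes in the 6 aCSF (grey) and 6 L-fucose (orange) libraries. Digits give the replicate number and bars the mean ± SD of each group. aCSF 4 is the lowest point of the Penk, Tac1, Dlx6 and Foxp2 panels, and Penk is the panel in which 3 L-fucose libraries exceed every aCSF library.

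Tac1, the other peptide precursor, lies on chromosome 6 from 7554879 to 7565834 (plus strand, GRCm38, ENSMUSG00000061762) with 3399 exonic bases, none shared with another gene. It is the 1 member found in the RefSeq table of promoters used here (GRCm38.p6). The stretch below runs over chr6:7554811-7555110 on the plus strand, from 250 bases before to 50 after the RefSeq start site, and is shown because cyclic AMP response elements are a textbook route by which neuronal activity reaches peptide genes. The start of the GENCODE gene falls inside it, upstream of the RefSeq start. Capitals mark CGTCA, the core of that element, searched on both strands and found at positions -197 and -43 from the start site, both times on the strand shown.
Tac1 promoter: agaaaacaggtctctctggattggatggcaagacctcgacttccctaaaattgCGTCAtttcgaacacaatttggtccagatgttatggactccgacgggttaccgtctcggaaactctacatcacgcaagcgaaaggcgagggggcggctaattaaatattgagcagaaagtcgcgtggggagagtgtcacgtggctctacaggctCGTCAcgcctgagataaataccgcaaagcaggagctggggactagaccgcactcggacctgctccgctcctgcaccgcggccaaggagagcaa

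CGTCA occurs on either strand in 20.8% of the 32851 promoters of this length, and 5.01% hold at least 2 copies. The full palindrome TGACGTCA, which contains CGTCA, is in 1.79% of promoters and its letters are not in this window. CACGTG, an E box, occurs once, at position -61, and is in 7.15% of promoters. These matches describe the letters of the window and not a binding site.

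Tac1 levels differed less between the groups than those of Penk. In aCSF, Tac1 ran from 970.0 normalized reads (aCSF 4) through a median of 1306 to 1657 (aCSF 6), and in L-fucose from 1042 (L-fucose 5) through 1538 to 1720 (L-fucose 1). The ranges overlapped over most of their length, and 4 L-fucose libraries exceeded the aCSF median, 2 of them also the highest aCSF library. The log2 fold change was 0.16 (standard error 0.14, interval -0.13 to 0.45). It was 0.27 (-0.02 to 0.56) without aCSF 5 and 6 and 0.08 (-0.20 to 0.36) without aCSF 4. The ratio of Penk to Tac1 reads within a library, which no size factor enters, was 3.17 to 5.87 in aCSF (4.66 ± 1.09, SD, n = 6) and 4.53 to 7.27 in L-fucose (6.30 ± 0.99). In 5 of 6 L-fucose libraries this ratio exceeded that of every aCSF library, the exception being L-fucose 1. The count stayed at 5 without aCSF 4 and without aCSF 5 and 6, but leaving out aCSF libraries cannot lower it. The aCSF ratios were then 4.96 ± 0.91 (n = 5, without aCSF 4) and 4.16 ± 0.98 (n = 4, without aCSF 5 and 6).

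Dlx6 and Dlx5 lie 9.24 kb apart on chromosome 6. Dlx6 (ENSMUSG00000029754, plus strand) spans 6863334 to 6868568, and Dlx5 (ENSMUSG00000029755, minus strand) spans 6877805 to 6882085. Dlx6 ran from 128.9 normalized reads (aCSF 4) through 292.0 to 337.7 (aCSF 6) in aCSF and from 244.2 (L-fucose 5) through 298.0 to 378.9 (L-fucose 2) in L-fucose. The medians were near each other, and aCSF 4 lay far below the remaining 11 libraries, the next lowest of which was aCSF 3 at 240.8. Dixon's outlier rule, which sets the gap to the nearest value against the range, did not flag it within the 6 aCSF libraries. Applied to 28 sets of 6 values, with a critical value of 0.625, that rule flagged 0. The log2 fold change of Dlx6 was 0.24 (standard error 0.20, interval -0.17 to 0.65), and without aCSF 4 it was 0.04 (-0.27 to 0.35). Without aCSF 5 and 6 it was 0.38 (-0.04 to 0.81). Exons of Dlx6os2 on the other strand cover 4.38% of the exonic bases of Dlx6, and its row had at most 7.91 normalized reads.

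Dlx5 was the least covered of the 5 genes, with 94 to 255 recovered reads a library. It ran from 92.8 normalized reads (aCSF 3) through 162.5 to 226.4 (aCSF 6) in aCSF and from 147.1 (L-fucose 5) through 171.1 to 254.0 (L-fucose 3) in L-fucose. aCSF 3 and aCSF 4, at 92.8 and 101.7, were below every L-fucose library, and the other control libraries lay among them. The log2 fold change was 0.30 (standard error 0.22, interval -0.15 to 0.76), rising to 0.51 (0.05 to 0.97) without aCSF 5 and 6 and falling to 0.20 (-0.26 to 0.65) without aCSF 4. The lowest value over libraries left out in turn was 0.17, without aCSF 3. At 94 reads, counting alone gives a relative SD of 10.3%, against a coefficient of variation of 32.9% over the aCSF libraries. The reads of Dlx5 were 0.39 to 0.79 of those of Dlx6 in aCSF and 0.41 to 0.84 in L-fucose (0.60 ± 0.14 against 0.62 ± 0.14, SD, n = 6 each).

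Foxp2 (ENSMUSG00000029563, chromosome 6 from 14901349 to 15441977, plus strand) is by far the longest of the 5 genes, with 27 merged exons and 16346 exonic bases. In aCSF it ran from 428.1 normalized reads (aCSF 4) through 794.4 to 996.0 (aCSF 6), and in L-fucose from 592.9 (L-fucose 5) through 753.0 to 1008 (L-fucose 6). The L-fucose range lay almost inside that of aCSF, and 2 L-fucose libraries exceeded the aCSF median. The log2 fold change was 0.08 (standard error 0.18, interval -0.29 to 0.45). Its sign turned without aCSF 4, to -0.07 (-0.39 to 0.24), and it was 0.30 (-0.05 to 0.64) without aCSF 5 and 6. The ratio of Penk to Foxp2 reads was 6.21 to 9.08 in aCSF and 8.36 to 16.3 in L-fucose. In 4 of 6 L-fucose libraries it exceeded that of every aCSF library. This count was also 4 without aCSF 4 and without aCSF 5 and 6, but leaving out aCSF libraries cannot lower it.

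Per kilobase of exon, the order of the levels over the 12 libraries was Penk at 4660 ± 1524 normalized reads per kb (SD), Tac1 at 404.1 ± 75.8, Dlx6 at 119.98 ± 26.6, Dlx5 at 75.6 ± 21.0 and Foxp2 at 47.6 ± 10.997. The ranges of Penk and Tac1 did not overlap, nor did those of Tac1 and Dlx6. Those of Dlx6 and Dlx5 overlapped, although Dlx6 was above Dlx5 in 12 of 12 libraries, and Dlx5 was above Foxp2 in 11 of 12. The length used is that of all annotated exons together, so it understates the level per kilobase of a gene with many alternative exons, such as Foxp2.

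All 5 genes passed the filter on low values (at least 10 normalized reads in at least 6 libraries). With limma, a linear model fitted to log2(value + 1) of all 10787 tested rows, 0 of 5 members passed an adjusted p of 0.05, and 0.00% of all rows did, although 643 rows had an unadjusted p under 0.05. edgeR with TMM factors also gave 0 rows (602 unadjusted), and DESeq2 gave 1, which is not a member. Penk was the 1 member whose 95% interval lay above 0, as it did in 3.17% of tested rows. Without aCSF 5 and 6, Penk and Dlx5 had intervals above 0, 2 of 5 members, against 5.37% of 10425 tested rows. All 5 fold changes were positive, with a median of 0.24, where 52.0% of all tested rows and 38.5% of those in register were positive, with medians of 0.01 and -0.05. These shares are the background to values that helped to choose the genes. Of the 457 tested rows in register, 15 had a higher fold change than Penk, 44 than Dlx5, 58 than Dlx6, 85 than Tac1 and 130 than Foxp2.

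**Figure D3:**
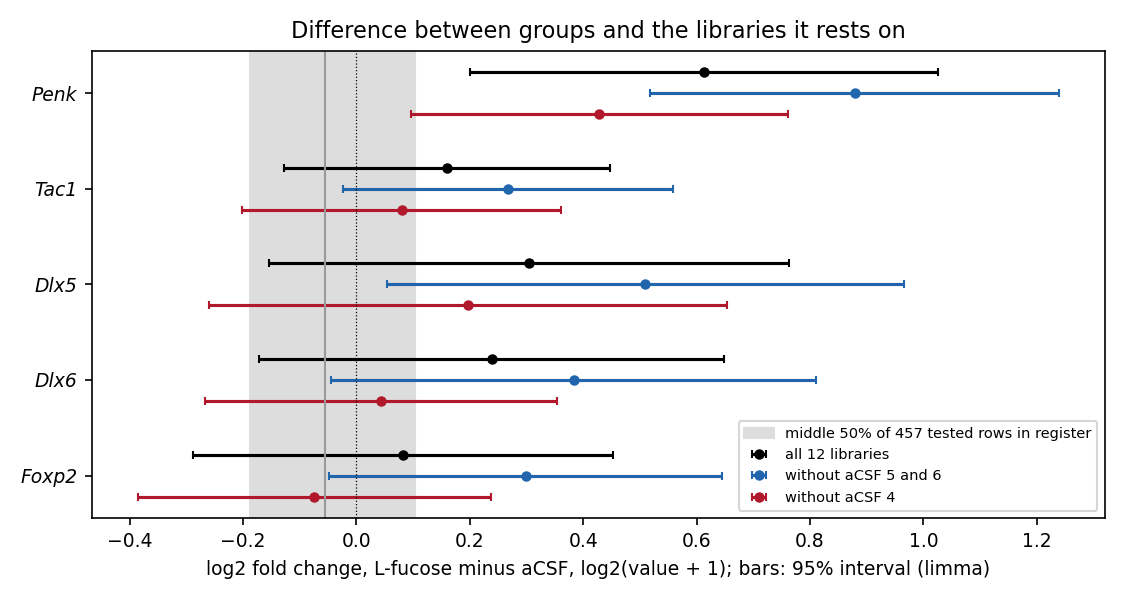
Difference of log2(value + 1) for each gene, L-fucose minus aCSF (x axis), with 95% intervals from limma, for all 12 libraries (black), without aCSF 5 and 6 (blue) and without aCSF 4 (red). The grey band is the middle 50% of the 457 tested rows in register, from -0.19 to 0.10, and Penk is the gene whose 3 intervals all lie above 0.

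The spread between libraries of 1 group was larger than the median of rows in register for each of the 5 genes, least so for Tac1. The SD of log2 levels, pooled over the groups, was 0.46 for Penk, 0.42 for Dlx5, 0.39 for Dlx6, 0.38 for Foxp2 and 0.28 for Tac1, against a median of 0.25 over the 457 tested rows in register. Of these 457 rows, 74.8% had a smaller SD than Penk, 72.2% than Dlx5, 70.7% than Dlx6, 69.4% than Foxp2 and 56.9% than Tac1. For the 345 with a mean over 100 normalized reads, the shares in the same order were 94.8%, 92.2%, 91.0%, 89.6% and 74.5%. In each of the 5 genes except Tac1 the SD was larger in aCSF than in L-fucose, for Penk 0.57 against 0.31 and for Foxp2 0.47 against 0.26. The median SD over the 457 rows was also larger in aCSF, 0.28 against 0.22. The share of those rows with the larger SD in aCSF was not computed. Without aCSF 4 the aCSF values were 0.39 for Penk, 0.48 for Dlx5 and 0.31 for Foxp2, while for Dlx6 the value went from 0.50 to 0.18, below the 0.23 of L-fucose. Without aCSF 5 and 6 they were 0.49 for Penk, 0.48 for Dlx5, 0.57 for Dlx6 and 0.43 for Foxp2. Counting error was small beside this spread, at a relative SD of 1.81% for the lowest Penk library and 8.84% for the lowest Dlx6 library. aCSF 4 was the lowest of the 12 libraries for Penk, Tac1, Dlx6 and Foxp2 and the second lowest for Dlx5, and it was the lowest for 15.8% of the tested rows in register. L-fucose 5 was the lowest L-fucose library for each of the 5 genes. Of the tested rows in register, 11.6% were lowest of all 12 libraries in L-fucose 5 and 18.8% in L-fucose 4. The share of those rows with L-fucose 5 lowest among the 6 L-fucose libraries was not computed. The highest library differed from gene to gene, with L-fucose 2 highest for Penk and Dlx6, L-fucose 1 for Tac1, L-fucose 3 for Dlx5 and L-fucose 6 for Foxp2.

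The genes were next compared over the 12 libraries, to ask whether they vary together. All 10 pairs had positive correlations of log2(value + 1) over the 12 libraries, from 0.39 (Dlx5 and Foxp2) to 0.80 (Penk and Dlx6), with a median of 0.66. For Penk and Dlx6, Pearson's r was 0.80 (permutation p = 0.0042, adjusted 0.021, two-sided) and Spearman's rho 0.65 (permutation p = 0.026, adjusted 0.130). For Penk and Tac1, r was 0.76 (permutation p = 0.0034, adjusted 0.021) and rho 0.70 (permutation p = 0.014, adjusted 0.130). For Tac1 and Dlx6, r was 0.75 (permutation p = 0.00068, adjusted 0.0068) and rho 0.67 (permutation p = 0.020, adjusted 0.130). These 3 pairs passed the threshold after Benjamini-Hochberg adjustment over the 20 relations computed, which are the 10 pairs and 10 relations to library measures. The neighbours Dlx5 and Dlx6 had an r of 0.68 (permutation p = 0.0145, adjusted 0.058) and a rho of 0.59 (permutation p = 0.048, adjusted 0.160). By rank, 0 of 10 pairs passed.

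Centring on the group means left these 3 values much as they were. With every value centred on its group mean, and permuted within the group, the same 3 pairs had an r of 0.80 (Penk and Dlx6, permutation p = 0.0079, adjusted 0.040), 0.76 (Penk and Tac1, permutation p = 0.0050, adjusted 0.033) and 0.73 (Tac1 and Dlx6, permutation p = 0.0044, adjusted 0.033). Without aCSF 5 and 6 they were 0.79, 0.75 and 0.74, and over these 10 libraries Tac1 and Dlx6 was the 1 pair past the threshold (permutation p = 0.0035, adjusted 0.039).

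The calls of all 3 pairs depended on aCSF 4, and that of Penk and Dlx6 also on L-fucose 2, the library highest for both genes, without which its r was 0.77 (permutation p = 0.0183, adjusted 0.061). Without aCSF 4 r was 0.52 for Penk and Dlx6 (permutation p = 0.1005, adjusted 0.335), 0.63 for Penk and Tac1 (permutation p = 0.038, adjusted 0.253) and 0.69 for Tac1 and Dlx6 (permutation p = 0.019, adjusted 0.186), and 0 pairs passed. For Dlx6 and Foxp2, r fell from 0.64 to 0.06, and for Dlx5 and Foxp2 from 0.39 to 0.06. Without the 2 libraries farthest from the median of the first gene of each pair, r was 0.69 for Penk and Dlx6, 0.54 for Penk and Tac1 and 0.59 for Tac1 and Dlx6, again with 0 pairs past the threshold over these 10 libraries. Within the 6 aCSF libraries the 10 values ran from 0.48 to 0.93, and within the 6 L-fucose libraries from 0.03 to 0.93, with medians of 0.76 and 0.30. Penk and Dlx6 had an r of 0.93 within L-fucose (exact permutation p = 0.0125, adjusted 0.250) and 0.77 within aCSF (exact permutation p = 0.074, adjusted 0.147). Whether the values in the 2 groups differ was not tested.

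**Figure D4:**
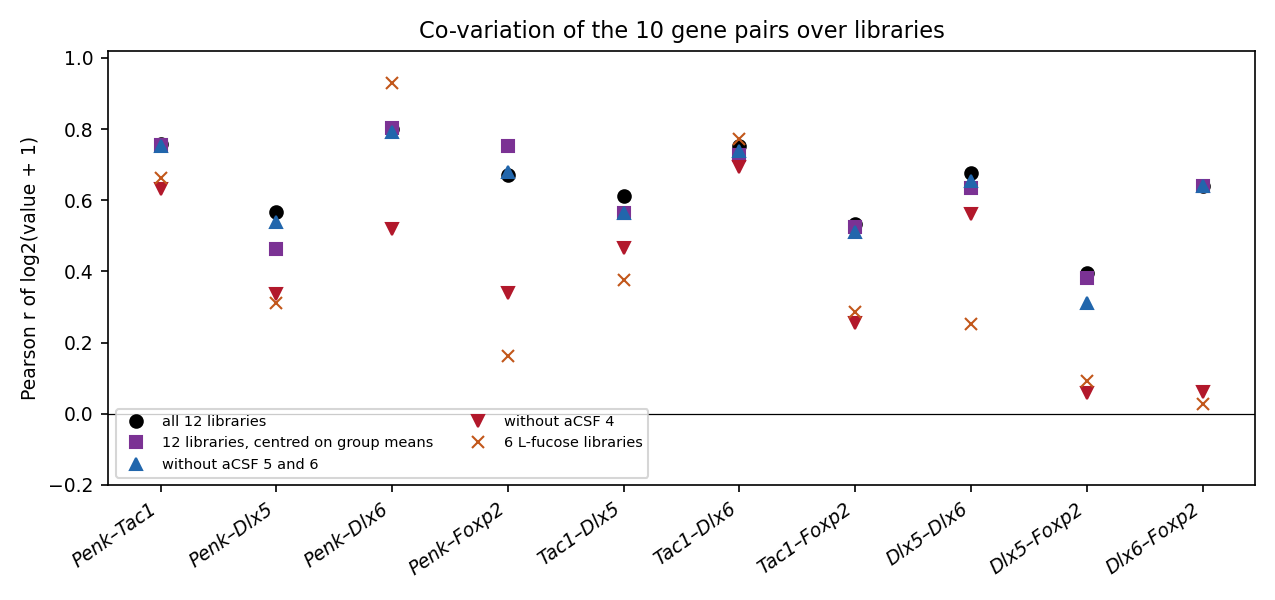
Pearson r of log2(value + 1) for the 10 pairs of genes (y axis), over all 12 libraries, with values centred on group means, without aCSF 5 and 6, without aCSF 4 and over the 6 L-fucose libraries alone. The red triangles (without aCSF 4) lie below the black circles in every pair, from 0.06 for the pairs of Foxp2 with Dlx5 and Dlx6 to 0.69 for Tac1 and Dlx6.

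How the members rank among the genes most like each of them was read from the same table. Over the 380 other tested protein-coding rows in register, the median r with Penk was 0.05 and the middle 50% ran from -0.24 to 0.31. Dlx6 had the highest r with Penk of all these rows, with Tac1 at rank 5, Foxp2 at rank 15 and Dlx5 at rank 35. Penk was at rank 2 for Tac1 and at rank 2 for Dlx6. These ranks changed with the libraries counted. Without aCSF 4 the row most like Penk was Exosc3 (r of 0.72), a subunit of the RNA exosome named after its value was seen, and Tac1 was at rank 4, Dlx6 at rank 19, Foxp2 at rank 57 and Dlx5 at rank 58. Penk was then at rank 11 for Tac1 and at rank 33 for Dlx6. Without aCSF 5 and 6 the row most like Penk was B4galt1 (0.82), with Dlx6 at rank 3 and Tac1 at rank 11. Over all 12 libraries the member most like Dlx5 was Dlx6, at rank 7 (rank 14 without aCSF 4), and the member most like Foxp2 was Penk, at rank 22 (rank 131 without aCSF 4). For Dlx5, Tac1 was at rank 17, Penk at rank 24 and Foxp2 at rank 61. For Foxp2, Dlx6 was at rank 29, Tac1 at rank 66 and Dlx5 at rank 106. The middle 50% of r ran from -0.17 to 0.28 for Dlx5 and from -0.09 to 0.43 for Foxp2. The r of 0.39 between Dlx5 and Foxp2 lay above the first range and inside the second.

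The genes outside the group whose pattern over the 12 libraries was most like that of each member were chosen by the size of r alone. None is on the lists of neuronal genes used here. Only 27 of the 123 genes on all lists, members included, are in register, so this absence says little. B4galt1, a galactosyltransferase of the Golgi, had an r of 0.78 with Penk, Ccdc136 0.77 and Dap, a death-associated protein, 0.77. Polr2k, a small subunit shared by the RNA polymerases, was among the 3 nearest genes of Tac1 (0.77), Dlx5 (0.86) and Dlx6 (0.79), and Chmp5, a component of the endosomal sorting complexes, among those of Dlx5 (0.75) and Dlx6 (0.78). Gng11, a G protein gamma subunit, was nearest to Dlx6 (0.86). Tstd3 (0.75) and Nans (0.75), the synthase of sialic acid phosphate, followed Tac1, and Rad1 (0.75), a DNA damage checkpoint protein, followed Dlx5. Nearest to Foxp2 were Retreg1, a receptor for autophagy of the endoplasmic reticulum (0.91), Pdp1, a phosphatase that activates pyruvate dehydrogenase (0.85), and Zfp706 (0.85). Without aCSF 4 these 15 values lay between 0.56 (Ccdc136 with Penk) and 0.83 (Retreg1 with Foxp2).

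Foxp2 was the 1 member whose level was related to the mitochondrial share of the library past the threshold. Its r was 0.85 over the 12 libraries (permutation p = 0.00038, adjusted 0.0068) with a rho of 0.76 (permutation p = 0.0058, adjusted 0.116), and it was at rank 4 of the 457 tested rows in register, whose median r was 0.22 (rank 25 without aCSF 4 and rank 3 without aCSF 5 and 6). For the other members r was 0.38 to 0.60, and none passed. Within the 6 aCSF libraries their r was also high, from 0.75 (Dlx5) to 0.89 (Penk), although no member passed there. It was -0.41 (Dlx5) to 0.11 (Penk) within L-fucose, and 0.09 (Tac1) to 0.22 (Penk) without aCSF 4. Whether their r differs from that of Foxp2 was not tested. The Foxp2 value was 0.85 without aCSF 5 and 6 (permutation p = 0.0039, adjusted 0.039), 0.76 without aCSF 4 (permutation p = 0.0075, adjusted 0.150), 0.73 without the 2 libraries farthest on Foxp2 (permutation p = 0.018, adjusted 0.258), 0.92 within aCSF (exact permutation p = 0.0111, adjusted 0.111) and 0.68 within L-fucose (exact permutation p = 0.167, adjusted 0.667). Relations of the 5 genes to the number of rows above 0 ran from -0.38 (Foxp2) to 0.08 (Dlx6), and none passed. The part of mitochondrial content in the levels of the members was not tested.

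**Figure D5:**
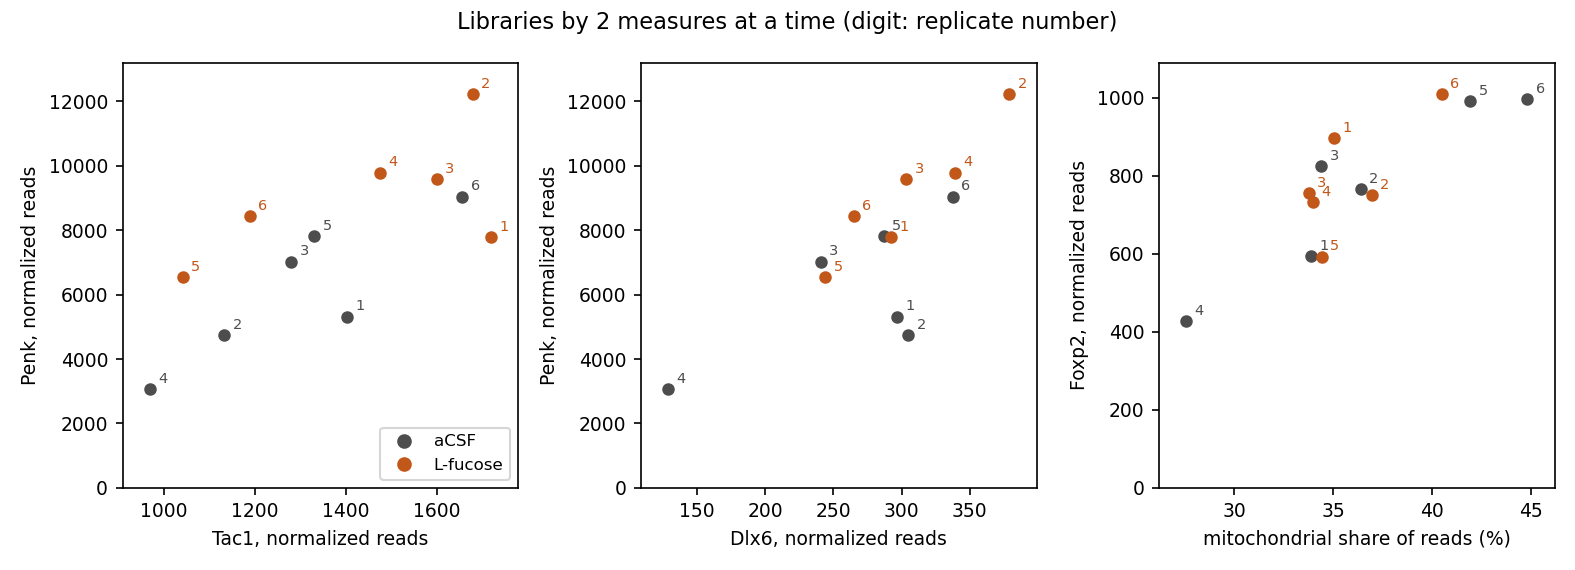
Penk against Tac1 and Penk against Dlx6 in normalized reads, and Foxp2 against the mitochondrial share of reads in percent, with 1 point for each of the 12 libraries (grey aCSF, orange L-fucose, digit for the replicate). aCSF 4 lies at the lower left of each panel, and each L-fucose point except L-fucose 1 has a higher ratio of Penk to Tac1 than every aCSF point.

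Other genes of the same neurons, from lists of marker genes, were read only where their rows are in register, and none passed the adjusted threshold in limma. Of 25 genes listed for striatal projection neurons 4 were in register, Penk, Tac1, Foxp2 and Cnr1. The first 3 are members with the positive fold changes given above, so they largely set the list median of 0.12. Cnr1 was the 1 gene of this list in register outside the group. Cnr1, the cannabinoid receptor abundant on the terminals of these neurons, was at -0.13 (interval -0.31 to 0.05). Its highest value of the 12 libraries, 2318 normalized reads, was in aCSF 4, the library in which Penk, Tac1, Dlx6 and Foxp2 were lowest. That value was close to those of Cnr1 in aCSF 6 (2259) and aCSF 5 (2256). Of 21 genes listed for GABAergic neurons of the forebrain 5 were in register. Besides Dlx5 and Dlx6 these were Dlx6os1, the long RNA antisense to Dlx6, at 0.22 (-0.12 to 0.56), the calcium buffer Calb1 at -0.05 (-0.24 to 0.15) and Nxph1, a ligand of neurexins found on interneurons, at -0.06 (-0.28 to 0.17). Of 15 genes of the opioid and tachykinin systems, receptors and processing enzymes included, Penk and Tac1 were the 2 in register, so the receptors of their peptides are not described.

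Markers of other regions and cell types in register gave the following values. The lists were written with earlier results of these data known. Counts over a list are therefore a description, and the shares beside them are no test. The 3 pan-neuronal genes Basp1, Gabbr2 and Ctnnd2 were at 0.03, 0.02 and -0.05, and their summed level was 38921 to 43896 normalized reads in aCSF and 39069 to 43713 in L-fucose. The 4 genes listed for excitatory neurons of cortex and hippocampus, Met, Pdzd2, Cdh9 and Sema5a, were negative, from -0.27 to -0.14, each with an interval that included 0, where 61.5% of the tested rows in register and 48.0% of all tested rows were negative. Their sum was 2739 to 4032 in aCSF and 2467 to 3177 in L-fucose. Car8, abundant in Purkinje cells, was at -0.23 (-0.52 to 0.06). All 6 genes in register of the ependyma and choroid plexus list were negative, with a median of -0.67, and 4 of them, Spef2, Capsl, Cfap206 and Dnah5, had intervals below 0 without passing the adjusted threshold. Of the 457 tested rows in register 7.88% had such an interval, and of all tested rows 2.79%. The sum of this list was 830 to 1541 in aCSF and 673 to 954 in L-fucose. Col1a2, a collagen of fibroblasts, was at 0.24 and, like Penk, lowest in aCSF 4 (380.8 normalized reads). Cav1 of vessels was at -0.01, Ptprz1 of astrocytes and their precursors at -0.30 (-0.49 to -0.11) and Lyn of microglia at -0.24. No listed gene in register was at 0 in all libraries, and the lists for thalamus and oligodendrocytes had 0 genes in register. The part of the makeup of the sections in the Penk difference was not tested.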

How the data were processed

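The deposited table holds a normalized signal, read counts that the authors divided by 1 size factor per library, as found from the values: in every library a single step, the worth of 1 read, turned 100% of them into whole numbers to within 0.01 reads. Per the submitters' processing notes the tools were Trimmomatic (version 0.39), the aligner HISAT2 (version 2.2.1), the counter featureCounts (version 2.0.3) and DESeq2 (version 2.11.40.8), with build mm10; the annotation release, strand setting and filters were not stated. Reads were recovered by division by that step.

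Identifiers were matched to GENCODE M21 (GRCm38), 52073 with and 4850 without a symbol. Regions in register are runs of at least 120 rows in which every window (80 rows, steps of 20 rows, displacements in steps of 500 bp) matched best within 1000 bp of none. On simulated levels 16.6% of 23935 undisplaced and 0 of 28101 displaced rows passed this rule. Each displaced chromosome had the same displacement over its whole length. Displacements that change along a chromosome, or that barely exceed 1000 bp, were not simulated.

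limma 3.58.1 (R 4.3.3) was fitted to log2(value + 1), with a term for group and a variance trend over level, on rows of at least 10 in at least 6 libraries. P-values were two-sided, with Benjamini-Hochberg adjustment over the tested rows. edgeR 4.0.16 and DESeq2 1.42.0 were run on recovered reads. Correlations had 100000 permutations, or all of them with 6 libraries. The fits were tested on simulated data. Intervals of fold changes assume independent libraries, and counting errors independent reads. Ranks, SDs and ratios without aCSF 4 or without aCSF 5 and 6 were added after seeing the data.

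The members, lists and alternatives were chosen with earlier results of these data known. Named genes are the 5 members, the 3 protein-coding genes in register nearest to each by Pearson r (predicted models passed over) and the listed genes in register.

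No libraries of a group agreed within sampling noise. Same-numbered libraries did not deviate together (r from -0.17 to 0.17), so numbers were not used as pairs.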

Additional observations from a re-analysis of the deposited data

How the results depend on the processing

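Over 21 alternatives for each gene, 104 of 105 fold changes were positive and all lay within 1 SD of the replicates from the values given. That SD, pooled over the groups, was 0.28 (Tac1) to 0.46 (Penk), more than the fold change itself in every member except Penk. Leaving out 1 library of 6 cannot move a fold change that far, so for those alternatives the limit was no check. Foxp2 ran from -0.07 to 0.30 within it. The exception in sign was Foxp2 without aCSF 4, at -0.07. With a replicate block in limma, Penk was at 0.61, since a balanced block cannot move this fold change. In edgeR with this block Penk was at 0.61, and 0 rows passed in either tool, as without the block. Rows past the threshold numbered 0 in each alternative except DESeq2, with 1, and leaving out each library gave 0 to 0. Of the 10 gene pairs, 3 passed over all 12 libraries, 0 by Spearman's rho, 1 when scaled to reads outside mitochondrial rows, 1 without aCSF 5 and 6, 0 without the 2 farthest libraries, 0 within aCSF, 0 within L-fucose and 0 to 4 when each library was left out, with 0 without aCSF 4. Without L-fucose 2, where 4 passed, Penk with Dlx6 was not among them. Of the 10 relations to library measures, 1 passed, and 0 by Spearman's rho, without the 2 farthest libraries, within aCSF or within L-fucose, and 0 to 1 with each library left out. The r of Tac1 with Foxp2 turned negative, -0.051, without the 2 farthest libraries. Alternatives that leave out libraries or stay within a group test fewer of them, and apart from this the cause of a lost call was not tested. Counting error in the lowest library was 1.81% for Penk and 10.3% for Dlx5.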

Other observations

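Dlx6os1, also known as Evf2, is a long RNA transcribed from the strand opposite to Dlx6, whose annotated span covers Dlx6 and ends before Dlx5, and is known to act on the expression of both genes. Its row (ENSMUSG00000090063, chromosome 6 from 6820189 to 6871592, minus strand, GRCm38) ran from 161.2 (aCSF 4) through a median of 222.3 to 271.6 (aCSF 1) normalized reads in aCSF and from 207.7 (L-fucose 1) through 257.0 to 347.7 (L-fucose 5) in L-fucose. aCSF 4 was thus the lowest library for Dlx6os1 as for Dlx6. In L-fucose 5 the 2 transcripts went apart, since Dlx6os1 had its highest while only aCSF 4 and aCSF 3 were lower for Dlx6. The ratio of Dlx6 to Dlx6os1 reads was 0.70 in L-fucose 5 and 0.80 in aCSF 4, and 1.06 to 1.41 in the other 10 libraries. Without a stated strand setting, reads of the 2 genes could be confused where their exons meet, but the annotation gives Dlx6 and Dlx6os1 no exonic base in common. Of the exonic bases of Dlx6os1, 7.48% lie opposite and 2.01% on the same strand as exons of other entries, so its own count is less certain.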
